A study of Mus musculus with 12 samples.

Results

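Control interstitial macrophages (IM) and control nonclassical monocytes (NCM) are compared here, as 6 of the 12 libraries of a mouse lung RNA sequencing series. The libraries were chosen by their labels, IM648, IM659 and IM660 for IM control and NCM648, NCM657 and NCM659 for NCM control, each named here by cell type and the number in its title. Per the labels, all animals were C57Bl/6 mice. They spent 3 weeks in hypoxia and received SU5416, which blocks VEGF receptors, once a week, an exposure used to produce pulmonary hypertension in rodents. The controls carried floxed Hif1a, the gene of the oxygen-regulated subunit of HIF-1, without Cre, so Hif1a was intact in both cell types. The other 6 libraries, 3 of IM and 3 of NCM labelled as Hif1a deleted (Cre under Cx3cr1), had the same exposure and serve here as a separate set in which the same cell types can be compared. About 250 cells were sorted into lysis solution for a library. No animal without hypoxia and SU5416 is among the labels, so the values describe the exposed lung alone. The labels name neither the sort markers nor the sex, and do not state that a number stands for a separate animal, so p-values measure spread between libraries that may be technical.

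Interstitial macrophages occupy the tissue around airways and vessels, take up debris, present antigen and release mediators. Nonclassical monocytes are Ly6C-low blood monocytes that depend on the nuclear receptor NR4A1 and crawl along the vessel wall through the integrin LFA-1. In pulmonary hypertension both kinds of cell are studied as sources of signals that reach the vessel wall. Monocytes can also give rise to macrophages in tissue, so genes of one identity may be found at intermediate levels in the other.

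Gene counts summed to between 13333039 and 14099509 in the IM control libraries and between 7238612 and 8583265 in the NCM control libraries. Reads that aligned outside annotated exons made up 43.2, 38.5 and 44.2% of exonic plus outside-exon reads in IM648, IM659 and IM660, and 66.8, 60.2 and 58.1% in NCM648, NCM657 and NCM659. The difference was -19.7 percentage points (exact two-sided permutation p = 0.1, the smallest that 3 against 3 libraries can give). IM libraries ran in lanes 5 and 7 and NCM libraries in lanes 6 and 8, so lane and cell type cannot be told apart. Pearson correlations of log2 CPM lay between 0.890 and 0.928 within IM control, between 0.837 and 0.881 within NCM control and between 0.722 and 0.843 across the 2 groups. NCM648 stood apart from the other NCM control libraries, with summed CPM of the macrophage markers of 5748 against 7765 and 7479 and of the monocyte markers of 27706 against 18499 and 16419. In bulk samples fewer cells of a type and less RNA per cell cannot be told apart. Levels are given as CPM, counts per 1000000 counts of the TMM-scaled library size, in the order IM648, IM659, IM660 and NCM648, NCM657, NCM659.

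The 2 cell types differed at 1066 of 14254 tested genes (7.48%) in edgeR's quasi-likelihood test at a Benjamini-Hochberg adjusted p under 0.05. IM were higher at 401 genes (2.81%) and NCM at 665 (4.67%). These shares are the background for the list counts below. The IM-higher genes had a median log2 fold change of 2.28, and 231 of the 401 differed at least 4-fold. The NCM-higher genes had a median of -1.70, and 248 of the 665 differed at least 4-fold. The median over all tested genes was 0.06. DESeq2 divided its calls more evenly, with 854 higher in IM and 914 higher in NCM. Without IM648 the counts were 194 and 310, without IM659 252 and 276, without IM660 214 and 385, and without NCM648 206 and 327. Leaving out NCM657 gave 265 genes higher in IM, and leaving out NCM649 gave 684. With the share of reads outside exons as a covariate 15 and 13 genes passed and the median over all genes was -0.34, although 398 of the 401 and 640 of the 665 kept their direction. This share did not overlap between IM control and NCM control, so it is hard to tell apart from cell type. A call lost in that fit therefore does not show its cause. The NCM-higher genes spanned a median of 56.9 kb of genome against 24.9 kb for the IM-higher genes and 23.5 kb for all tested genes. In the Hif1a-deleted libraries 388 of the 401 genes (96.8%) and 603 of the 665 (90.7%) had the same direction, against 61.9% of all tested genes. With that direction 60.1% of the 401 and 25.0% of the 665 passed there. The share of reads outside exons was 59.2 to 69.8% in IM deleted and 55.1 to 72.7% in NCM deleted. Its part in the control differences was not tested beyond the covariate fit.

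**Figure D1:**
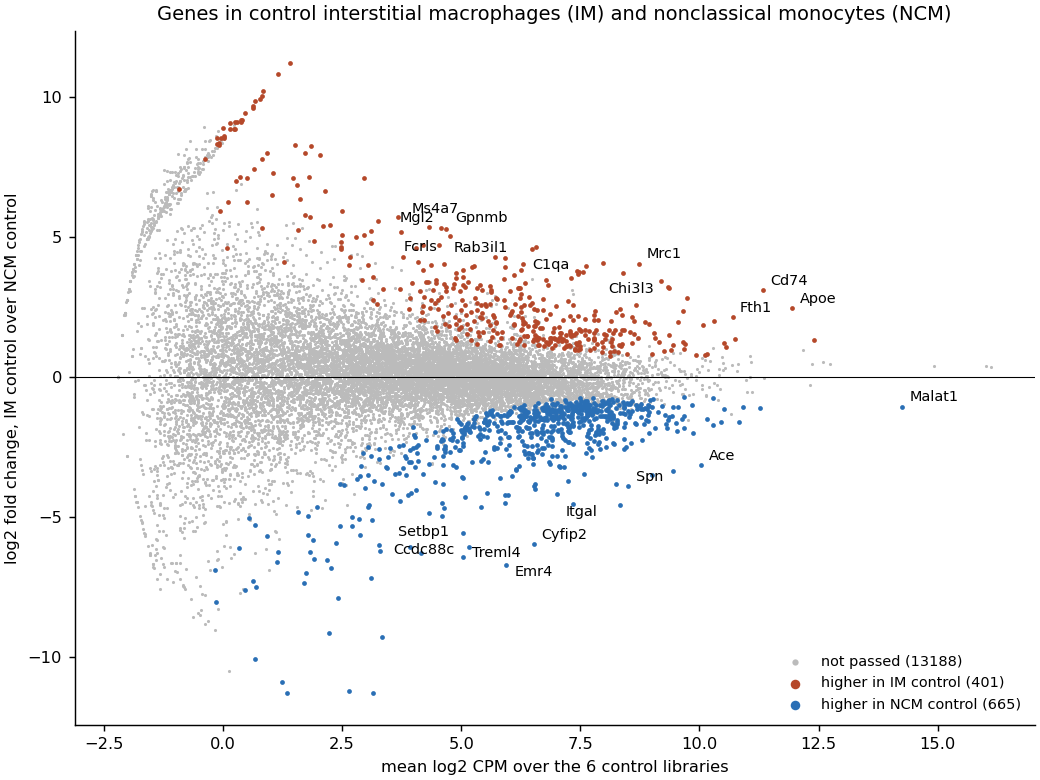
Log2 fold change of IM control over NCM control (vertical axis) against mean log2 CPM of the 6 control libraries (horizontal axis), 1 point per tested gene. Coloured points passed edgeR's test at an adjusted p under 0.05, 401 higher in IM and 665 higher in NCM, and the largest differences at moderate level were those of Emr4 and Treml4 on the monocyte side.

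The genes with the largest folds toward IM included lectins, a scavenger receptor and proteases. Ms4a7 (chr19:11321039-11336146), which encodes a four-pass membrane protein of tissue macrophages, had 131, 105 and 142 CPM in IM and 2.36, 3.79 and 3.03 CPM in NCM. Every IM library lay far above every NCM library, and the log2 fold change was 5.35 ± 0.70 (SE, edgeR adjusted p = 0.000438). Mrc1 (chr2:14229392-14332057), the mannose receptor CD206, had 1789.8, 1916 and 2118 CPM against 31.7, 139 and 183 CPM, and the log2 fold change was 4.04 ± 0.48 (SE, edgeR adjusted p = 0.000264). Stab1, the scavenger receptor stabilin-1 (chr14:31139013-31168641), had 1076, 1124 and 1185 CPM against 22.6, 68.7 and 111 CPM, and the log2 fold change was 4.06 ± 0.70 (SE, edgeR adjusted p = 0.00277). For Mrc1 and Stab1 alike, NCM648 was the lowest library. The genes with the largest folds were named only where the groups did not overlap. That held for 99.8% of the IM-higher genes, 99.7% of the NCM-higher genes and 35.8% of all tested genes.

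Plau (chr14:20836660-20843385), which encodes the plasminogen activator urokinase, had 311, 367 and 158 CPM in IM and 18.7, 8.44 and 17 CPM in NCM, and the log2 fold change was 4.24 ± 0.57 (SE, edgeR adjusted p = 0.000529). Adam19 (chr11:46055992-46147343), a membrane-bound metalloprotease, had 345, 332 and 332 CPM against 8.26, 25.4 and 27.5 CPM, and the log2 fold change was 4.04 ± 0.44 (SE, edgeR adjusted p = 0.000130). The 3 IM libraries agreed closely for Adam19 and spread over a wider range for Plau. Slco2b1, an organic anion transporter, had means of 482 ± 52.1 against 20.1 ± 15.8 CPM (SD, n = 3, 4.58 log2), Rab3il1, a Rab exchange factor, 125 ± 21.7 against 4.69 ± 2.92 CPM (4.72), and Atp6v0d2, a subunit of the lysosomal proton pump, 264 ± 25.8 against 13.5 ± 9.65 CPM (4.29). Col14a1, a collagen gene, had 520.2 ± 33.2 against 20.7 ± 13.6 CPM (4.65), and P2ry13, an ADP receptor, 77.1 ± 21.5 against 4.49 ± 3.34 CPM (4.10). Zmynd15 was higher in IM as well (4.60), but its exons overlap those of Cxcl16 on the opposite strand and the strand setting of the counting is not given in the sources used here. Gpnmb, a glycoprotein of phagocytes (297 ± 48.5 against 7.25 ± 11.8 CPM, 5.34, edgeR adjusted p = 0.0291), Mgl2, a galactose-binding lectin (247 ± 42.2 against 6.25 ± 5.44 CPM, 5.29, adjusted p = 0.0134), Fcrls (232 ± 23.9 against 7.06 ± 9.05 CPM, 5.02, adjusted p = 0.0154) and Cd72, an inhibitory lectin (105 ± 9.07 against 3.97 ± 3.82 CPM, 4.71, adjusted p = 0.0185), passed as well. Each of these last 4 fell short of the threshold without any single IM control library. Gpnmb did so also without IM649, IM650, IM661, NCM657 or NCM661, Mgl2 without NCM659, Fcrls without IM650 or NCM657, and Cd72 without NCM648 or NCM657.

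The marker lists, like all lists here, were chosen with earlier results of these data known. Of 36 tested markers of interstitial macrophages, 22 were higher in IM, 0 were higher in NCM and 14 did not pass, with a median log2 fold change of 2.87 beside 0.06 over all genes. Without IM648 14 were higher. The 22 genes had the same direction in the deleted libraries, where 18 of them passed. In that comparison 1 marker of the list was higher in NCM. The complement component C1q, which opsonizes dying cells, is built from 3 chains whose genes lie side by side on chromosome 4. C1qa (chr4:136895917-136898803) had 924, 798 and 907 CPM in IM and 7.23, 91 and 98 CPM in NCM, and the log2 fold change was 3.74 ± 0.84 (SE, edgeR adjusted p = 0.0138). C1qc (chr4:136889804-136893065) had 904, 769 and 972 CPM against 5.02, 104 and 86.2 CPM, and the log2 fold change was 3.76 ± 0.70 (SE, edgeR adjusted p = 0.00471). C1qb (chr4:136880129-136886187) had 100.2, 101 and 136 CPM against 0, 16.5 and 7.03 CPM, and the log2 fold change was 3.83 ± 1.05 (SE, edgeR adjusted p = 0.0379). All 3 chains were high in the IM libraries and lowest in NCM648, and no library of one group reached the other. Per kb of exon the IM means were 843 ± 65.8 CPM for C1qa, 457 ± 53.4 for C1qc and 103 ± 18.8 for C1qb (SD, n = 3). The call of C1qa was lost without IM648 or IM660, that of C1qb without any single one of IM648, IM659, IM660, IM649, IM650 and NCM659. C1qc kept its call in the 12 fits that left out 1 library. In the fit of the 6 control libraries alone the calls of C1qb and C1qc were lost. All 3 calls were lost with the outside-exon covariate and with the replicate block.

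Other macrophage identity genes differed less steeply. Emr1 (chr17:57358691-57483527), now called Adgre1 and encoding the F4/80 antigen, had 958, 910.3 and 1007 CPM in IM and 333, 231 and 209 CPM in NCM, and the log2 fold change was 1.89 ± 0.30 (SE, edgeR adjusted p = 0.00133). Each NCM library held F4/80 transcripts, at levels below every IM library. Mertk, a receptor for the uptake of dying cells, had means of 229 ± 35.4 against 44.1 ± 22.9 CPM (2.38 log2, edgeR adjusted p = 0.00226), and Fcgr1, the high-affinity IgG receptor CD64, 69.5 ± 2.60 against 6.81 ± 1.26 CPM (3.35, adjusted p = 0.0137). Cd14, the lipopolysaccharide co-receptor, had 621 ± 80.1 against 195 ± 96.5 CPM (1.67, adjusted p = 0.0210). The call of Fcgr1 was lost without IM648, NCM657 or NCM659, and that of Cd14 without IM648, NCM648 or NCM659. Apoe (chr7:19696109-19699188), the lipid carrier apolipoprotein E, was among the most abundant transcripts per kb in both groups, with 9835, 9248 and 8941 CPM against 1349, 1958 and 1791 CPM, and the log2 fold change was 2.46 ± 0.34 (SE, edgeR adjusted p = 0.000568). Csf1r, the receptor of the survival factor CSF-1, did not pass, with 1741 ± 68 against 1218 ± 280.2 CPM (0.51, adjusted p = 0.469), nor did Cx3cr1, the fractalkine receptor whose promoter drives Cre in the deleted animals, with 392 ± 66.2 against 219 ± 72.7 CPM (0.84, adjusted p = 0.294).

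Of 38 tested markers of nonclassical monocytes, 27 were higher in NCM, 0 were higher in IM and 11 did not pass, with a median log2 fold change of -2.60. All 27 had the same direction in the deleted libraries and 23 of them passed there. In the deleted comparison 1 marker of the list was higher in IM. In control, the fit of the 6 control libraries alone called 31 higher in NCM and 2 in IM, and limma-voom 31 and 3. Emr4 (chr17:55749984-55853662), now Adgre4, an adhesion receptor of the F4/80 family, had 2.04, 8.56 and 9.04 CPM in IM and 1012, 573 and 492 CPM in NCM, and the log2 fold change was -6.72 ± 0.88 (SE, edgeR adjusted p = 0.000537). Treml4 (chr17:48264295-48275360), a receptor that binds dying cells, had 7.01, 1.99 and 2.24 CPM against 417, 304 and 249 CPM, and the log2 fold change was -6.42 ± 0.65 (SE, edgeR adjusted p = 0.000106). For both genes NCM648 was the highest library, and the IM libraries lay near the bottom of the measured range.

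Itgal (chr7:127296260-127335138), the alpha chain of LFA-1, had 72.2, 50.03 and 81.9 CPM in IM and 2189, 1580.2 and 1112 CPM in NCM, and the log2 fold change was -4.58 ± 0.42 (SE, edgeR adjusted p = 5.39e-05). Its partner chain Itgb2 had 678 ± 89.4 against 1930.04 ± 296 CPM (-1.51, edgeR adjusted p = 0.00847, lost without IM659). Spn (chr7:127132232-127137823), the sialoglycoprotein CD43, had 98.5, 67.9 and 125 CPM against 1959, 1254 and 1127 CPM, and the log2 fold change was -3.90 ± 0.47 (SE, edgeR adjusted p = 0.000260). Ceacam1 (chr7:25461707-25477603), a homophilic adhesion receptor, had 22.2, 53 and 30.1 CPM against 1065, 734 and 637 CPM, and the log2 fold change was -4.53 ± 0.46 (SE, edgeR adjusted p = 0.000106). Itga4, the alpha-4 integrin chain that binds VCAM-1, had 224 ± 44.2 against 2279 ± 750.4 CPM (-3.35, adjusted p = 0.000518). Ace (chr11:105967945-105989964), the angiotensin-converting enzyme, had 364, 558 and 193 CPM against 4025, 3101 and 2762 CPM, and the log2 fold change was -3.15 ± 0.42 (SE, edgeR adjusted p = 0.000518). Ace is also a gene of lung endothelium, whose marker Cdh5 (VE-cadherin) had 463, 619.7 and 209 CPM in IM and 141, 287 and 636 CPM in NCM, so in IM the highest and the lowest library were the same for both genes, and the part of endothelial RNA in the IM level of Ace was not tested.

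Several NCM genes were close to absent in IM. Cd300e (chr11:115051917-115062177), an activating receptor of patrolling monocytes, had 0, 0 and 0.320 CPM in IM and 446, 244 and 173 CPM in NCM, edgeR adjusted p = 2.26e-05. S1pr5, a sphingosine-1-phosphate receptor needed by these cells to leave the marrow, had 0, 0 and 0.160 CPM in IM and 230.5, 114 and 121 CPM in NCM, and was picked after its values were seen. Pglyrp1, a peptidoglycan-binding protein, had 1.17, 0 and 0.160 CPM against 49.4, 36.2 and 41.2 CPM (adjusted p = 0.00564). With so few IM counts, the fold changes of these 3 genes depend on the prior count of the fit and are not given. Fcgr4, the IgG receptor CD16-2, had 23.9 ± 6.25 against 138 ± 87 CPM (-2.53, adjusted p = 0.00472), and Cd36, a scavenger receptor for lipids, had 432 ± 120.2 against 1130.1 ± 285 CPM (-1.39, adjusted p = 0.0236, lost without IM648, IM660 or NCM648). Ear2, an eosinophil-associated ribonuclease often listed with these monocytes, had 211, 158 and 266 CPM against 274, 143 and 105 CPM and did not pass (0.29, adjusted p = 0.837), and its reads may be shared with near-identical family members such as Ear1.

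**Figure D2:**
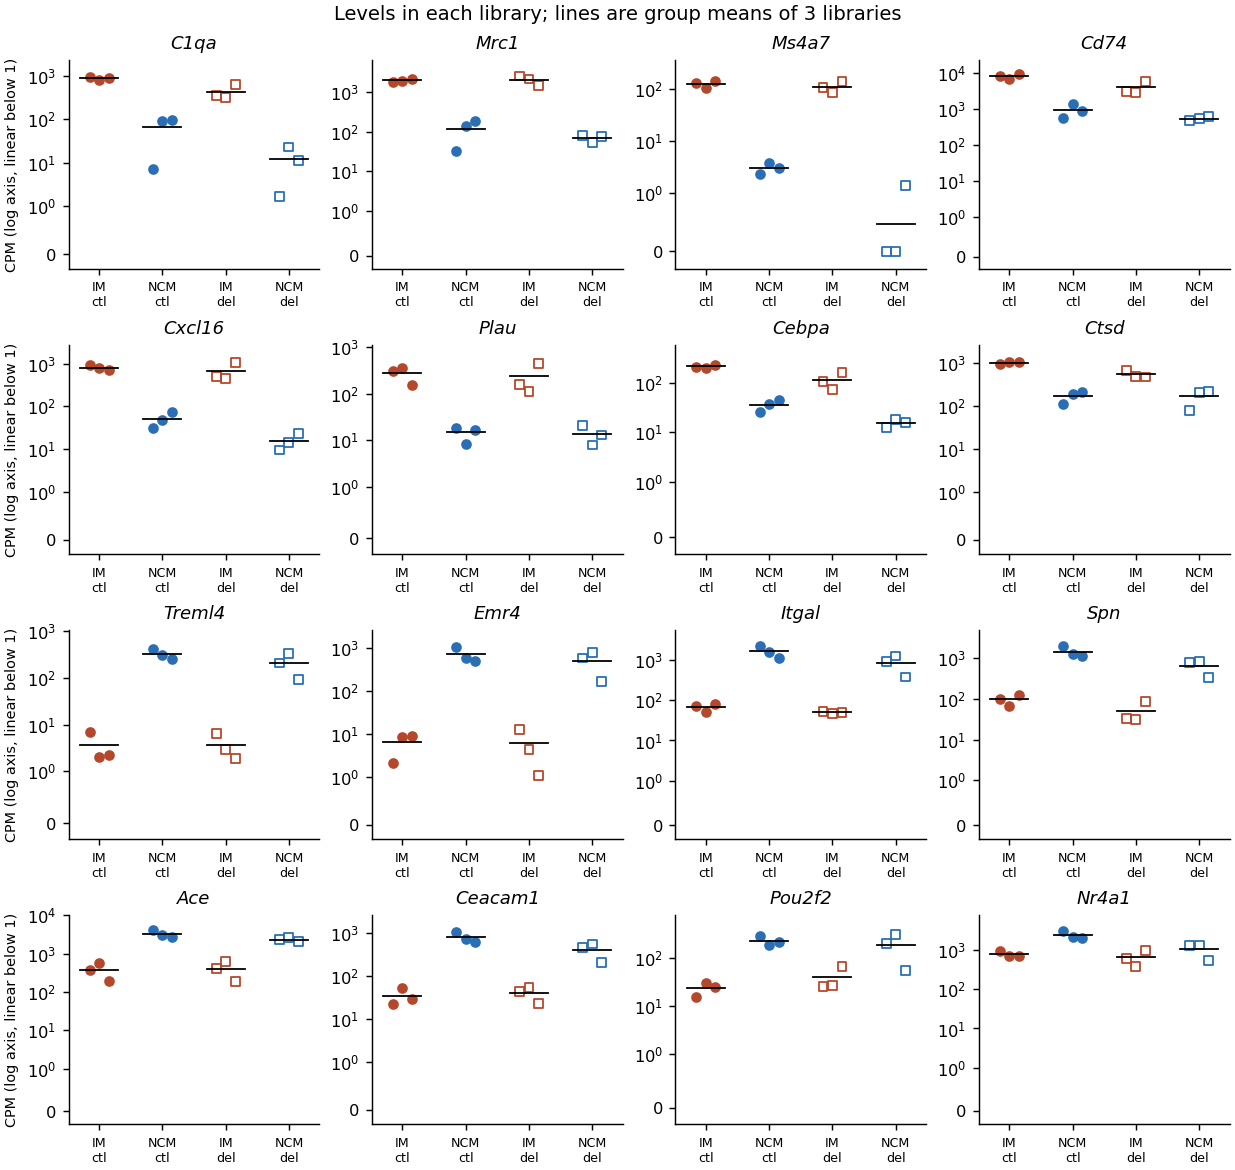
CPM of 16 genes (log axis, linear below 1) in each library of IM control, NCM control, IM deleted and NCM deleted, filled circles for control and open squares for deleted, with a line at the mean of the 3 libraries. The 8 genes in the upper 2 rows were higher in IM in each genotype without overlap, and those in the lower 2 rows were higher in NCM control, with only Nr4a1 and Pou2f2 overlapping between the deleted groups. The control groups did not overlap at 35.8% of all tested genes.

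Among the largest NCM folds were also genes outside the monocyte list. Ccdc88c (chr12:100911523-101029056), which encodes a Dishevelled-binding protein, had 2.41, 5.46 and 5.60 CPM in IM and 423, 220.4 and 264 CPM in NCM, and the log2 fold change was -6.07 ± 0.57 (SE, edgeR adjusted p = 5.47e-05). Cyfip2 (chr11:46193850-46312859), a subunit of the actin-regulating WAVE complex, had 8.83, 7.75 and 19.9 CPM against 939.6, 748 and 606 CPM, and the log2 fold change was -5.97 ± 0.48 (SE, edgeR adjusted p = 2.26e-05). Both genes were near the bottom of the range in IM, and the naming rule required groups without overlap. Eno3, the muscle form of the glycolytic enzyme enolase and itself on the monocyte list, had 3.66 ± 0.611 against 107 ± 41.8 CPM (-4.87), Cd244, a SLAM-family receptor, 12.9 ± 4.24 against 292 ± 50.5 CPM (-4.50), Ikzf3, the transcription factor Aiolos, 5.34 ± 3.03 against 121 ± 11.2 CPM (-4.49), and Cblb, a ubiquitin ligase that restrains receptor signals, 31.3 ± 9.94 against 562 ± 173 CPM (-4.17). Setbp1 (-5.57), Mdm1 (-4.67), Ldlrad3 (-4.65), Zfyve9 (-4.28) and Pot1b (-4.23) completed the 15 largest. Each of these 15 kept its call in the 12 fits that left out 1 library, and Treml4, Ccdc88c, Cyfip2, Ldlrad3, Itgal, Ceacam1, Zfyve9 and Cblb also with the outside-exon share as a covariate. In the deleted libraries the 15 genes were again higher in NCM and passed.

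RefSeq promoter windows (GRCm38.p6, 250 bases before to 50 after the start) were matched to 314 of the 401 IM-higher genes and 460 of the 665 NCM-higher genes. The stretches before the start of a C1q gene and of the 2 NCM genes with the largest folds are printed so that the letters can be read beside the levels of these genes. The call of C1qb, given above, was lost without any of 6 libraries. C1qb (chr4:136886201-136886450, minus strand), Emr4 (chr17:55749734-55749983, plus strand) and Treml4 (chr17:48264045-48264294, plus strand) are given 5′ to 3′ along the gene, and capitals mark a short MAF site (TGCTGA) and a PU.1 or other ETS match (GAGGAA) in C1qb, a C/EBP match (TTGCNNAA) and a RUNX match (TGTGGT) in Emr4, of which the last letter lies past the printed end, and 2 ETS matches in Treml4. Both strands were searched.
C1qb: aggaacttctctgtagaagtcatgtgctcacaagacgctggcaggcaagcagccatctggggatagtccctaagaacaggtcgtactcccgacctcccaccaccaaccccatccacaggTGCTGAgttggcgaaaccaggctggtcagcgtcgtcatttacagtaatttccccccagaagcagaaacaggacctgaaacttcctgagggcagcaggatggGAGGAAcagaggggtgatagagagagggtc
Emr4: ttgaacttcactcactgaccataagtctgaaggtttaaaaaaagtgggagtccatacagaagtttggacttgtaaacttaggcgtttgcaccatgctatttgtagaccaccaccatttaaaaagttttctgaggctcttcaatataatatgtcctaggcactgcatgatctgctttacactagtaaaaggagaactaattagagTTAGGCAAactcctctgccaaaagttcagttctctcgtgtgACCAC
Treml4: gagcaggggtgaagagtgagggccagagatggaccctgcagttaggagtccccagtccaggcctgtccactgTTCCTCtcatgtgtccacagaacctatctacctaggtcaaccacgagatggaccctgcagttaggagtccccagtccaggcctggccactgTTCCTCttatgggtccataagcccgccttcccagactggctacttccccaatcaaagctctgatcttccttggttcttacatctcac
The ETS letters were in 31.0% of 413 promoters of IM-higher genes, 30.3% of 598 promoters of NCM-higher genes and 27.0% of 13700 promoters of all tested genes. The short MAF site was in 18.6, 14.2 and 15.7%, the C/EBP letters in 11.9, 9.03 and 8.80%, and AP-1 letters (TGANTCA) in 9.20, 5.85 and 5.47%. The core of the hypoxia response element (ACGTG) was in 19.1, 26.6 and 24.7%, with median GC contents of 58.7, 62.3 and 60.0%. Over all 32851 promoters that RefSeq lists here, 28.3% held the ETS letters, 19.5% the short MAF site, 10.8% C/EBP, 16.8% RUNX, 7.81% AP-1 and 19.6% the hypoxia core. These shares are descriptions of letters, not of binding.

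Transcription factors of the lineage divided between the cell types. Of 49 tested, 6 were higher in IM and 12 in NCM, with a median log2 fold change of -0.37. Cebpa (chr7:35119293-35121928), a factor of myeloid differentiation, had 209, 202 and 228 CPM in IM and 25.4, 37.6 and 44.6 CPM in NCM, and the log2 fold change was 2.57 ± 0.33 (SE, edgeR adjusted p = 0.000384). Each IM library lay above every NCM library. Maf, a factor of macrophage differentiation, had 200.4 ± 23.4 against 23.8 ± 12.8 CPM (3.07, edgeR adjusted p = 0.0115, lost without NCM648), and Egr2, an early response factor, had 235 ± 4.97 against 32.1 ± 10.5 CPM (2.87, adjusted p = 0.000798).

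Nr4a1 (chr15:101254269-101274795), on which nonclassical monocytes depend, had 979, 720.5 and 716 CPM in IM and 3173, 2243 and 2031 CPM in NCM, and the log2 fold change was -1.62 ± 0.37 (SE, edgeR adjusted p = 0.0137). Its call was lost without IM659, IM660 or NCM648, and in the deleted libraries the difference did not pass (-0.72, adjusted p = 0.367). Pou2f2 (chr7:25087344-25179726), the factor OCT2, had 15.1, 30.6 and 24.7 CPM against 284, 189 and 210.1 CPM, and the log2 fold change was -3.28 ± 0.55 (SE, edgeR adjusted p = 0.00215). Bcl6, a repressor, had 32.4 ± 6.99 against 202 ± 28 CPM (-2.64, adjusted p = 0.00539), and Klf4 184 ± 28.8 against 400.1 ± 36.4 CPM (-1.12, adjusted p = 0.00812, lost without IM648). Klf2, which quiets endothelial and myeloid activation, had 193 ± 29.9 against 367 ± 34.1 CPM (-0.93, adjusted p = 0.0292) and Pparg, a lipid-sensing nuclear receptor, 41.8 ± 8.38 against 229 ± 66.1 CPM (-2.45, adjusted p = 0.0336). The calls of both were lost without any single control library, and that of Pparg also without NCM650. The count of NCM-higher factors was 4 without IM648, IM659 or IM660, 5 without NCM648, 7 without NCM657 and up to 18 over all fits that left out 1 library, and that of IM-higher factors was 3 without NCM648. Cebpb had 439 ± 31.1 against 862 ± 156 CPM, with no overlap of the groups, and missed the threshold (-0.97, adjusted p = 0.0635). Sfpi1, now Spi1 and encoding PU.1 (-0.76, adjusted p = 0.270), and Irf8 (0.82, adjusted p = 0.385) did not pass.

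Genes of MHC class II antigen presentation that passed were higher in IM. Of 22 tested genes 11 were higher in IM and 0 in NCM, with a median of 1.69, and each of the 11 passed again in the deleted libraries. H2-Eb1 (chr17:34305867-34316674), a beta chain, had 2195, 1800.2 and 2437 CPM in IM and 62.4, 349 and 192 CPM in NCM, and the log2 fold change was 3.41 ± 0.54 (SE, edgeR adjusted p = 0.00161). H2-Aa, its class II alpha chain relative, had 2172, 1872 and 2475 CPM against 84.7, 389.96 and 227 CPM, and the log2 fold change was 3.22 ± 0.52 (SE, edgeR adjusted p = 0.00166). Cd74, the invariant chain that escorts class II molecules, had 7873, 6702 and 8936 CPM against 541, 1315 and 883 CPM, and the log2 fold change was 3.10 ± 0.35 (SE, edgeR adjusted p = 0.000133). The IM libraries were uniformly high, and in NCM the lowest library was NCM648 and the highest NCM657. H2-Ab1 (3.17, adjusted p = 0.00471), the peptide loader H2-DMb1 (2.81, adjusted p = 0.00734) and the proteases Ctsl (2.27, adjusted p = 0.00161), Lgmn (1.59, adjusted p = 0.0165) and Ctss were also higher in IM. Dendritic cells, which carry class II as well, were checked by their markers: 1 of 25 passed (Mgl2, higher in IM), and the defining markers Flt3 (3.28, 5.53 and 19.9 CPM against 9.89, 62.1 and 16.4) and Zbtb46 (12.9, 28.2 and 12.9 against 36.1, 25.7 and 21.6) did not pass. Of all tested genes 2.81% were higher in IM. Without IM648, IM659 or IM660 none of the 25 passed, and without NCM650 3 did. Outside the list, Ccl17 and Cd207, which dendritic cells can also express, passed toward IM (picked after their values were seen). Ccl17 had 8.46, 2.66 and 11.2 CPM in IM and Cd207 12.5, 13.7 and 13.7 CPM, with no count in any NCM control library. The part of dendritic cell RNA in the class II levels was not tested.

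The chemokine genes that passed were higher in IM. Of 25 tested 8 were higher in IM and 0 in NCM, with a median of 1.87. Cxcl16 (chr11:70453983-70459984), the membrane-bound ligand of CXCR6, had 905, 793 and 721 CPM in IM and 31.9, 49.3 and 72.7 CPM in NCM, and the log2 fold change was 3.97 ± 0.43 (SE, edgeR adjusted p = 0.000119). Ccl2 (chr11:82035571-82037453), the ligand that recruits CCR2-bearing monocytes, had 262, 270.3 and 174 CPM against 3.84, 32.4 and 26.2 CPM, and the log2 fold change was 3.50 ± 0.71 (SE, edgeR adjusted p = 0.00737). The highest NCM libraries stayed below the lowest IM library for both. Cxcl2, a neutrophil attractant, had 617 ± 198 against 155 ± 82.9 CPM (1.99, adjusted p = 0.0196, lost without IM648, IM659 or NCM648), and Ccl6 888 ± 115 against 336 ± 103 CPM (1.40, adjusted p = 0.0274, lost without any one of IM648, IM659, IM660, NCM648 and NCM659). Ccl12 had 38.2, 21 and 14.8 CPM in IM and no count in any NCM control library, at least 63.1-fold higher in IM against a floor of 3 counts per library (picked after its values were seen). The count of 8 became 4 without IM648, IM659 or NCM648 and 5 without IM660 or NCM659.

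Cytokine and NF-kB feedback genes split, with 7 of 39 higher in IM, 3 higher in NCM and a median of 0.68. Il1rn (chr2:24336853-24351494), the interleukin-1 receptor antagonist, had 266, 281 and 172 CPM in IM and 11.5, 19.9 and 16.3 CPM in NCM, and the log2 fold change was 3.91 ± 0.74 (SE, edgeR adjusted p = 0.00504). Il10 had 96.5, 49.1 and 24.2 CPM against 12.2, 8.81 and 10.8 CPM, and the log2 fold change was 2.41 ± 0.59 (SE, edgeR adjusted p = 0.0202), a call lost without IM648 or any single NCM control library. Both genes are known as brakes on inflammation, and for both the groups did not overlap. Tnf, the gene of tumor necrosis factor, was higher in IM too, with 412, 323 and 242 CPM against 119, 98.0 and 95.6 CPM. Its log2 fold change was 1.64 ± 0.31 (SE, edgeR adjusted p = 0.0045), and it was chosen after its values were seen. Osm, oncostatin M, had 147 ± 25.9 against 44.4 ± 19.9 CPM (1.73, adjusted p = 0.0148, lost without IM648 or NCM648). Rel, the NF-kB subunit c-Rel, was the largest in the other direction, with 161 ± 30.9 against 747 ± 236 CPM (-2.21, adjusted p = 0.00472), and with it Nfkb1 and Tnip1 were higher in NCM. Without IM648 2 and without NCM648 3 genes were higher in IM, and without IM648, IM659, IM660 or NCM648 1 was higher in NCM.

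Most uptake receptor genes that passed were higher in IM. Of 36 genes of scavenging and efferocytosis 12 were higher in IM and 3 in NCM (Cd36, Scarb1 and Havcr2), with a median of 1.11. Without IM648, IM660 or NCM648 1 was higher in NCM. Axl (chr7:25757273-25788705), a receptor for phosphatidylserine bridges, had 777, 580.03 and 723 CPM in IM and 17, 75.2 and 60.04 CPM in NCM, and the log2 fold change was 3.77 ± 0.51 (SE, edgeR adjusted p = 0.000552). Siglec1, sialoadhesin, had 88.9 ± 10.4 against 4.46 ± 4.43 CPM (4.30, adjusted p = 0.0223, lost without IM648, IM659, IM660 or NCM657), and Trem2, a lipid-sensing receptor, had 68.8 ± 5.64 against 6.54 ± 4.45 CPM (3.39, adjusted p = 0.0144, lost without IM648 or IM660).

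Of 8 Fc gamma receptor genes 4 were higher in IM and 1, Fcgr4, in NCM. Fcgr2b (chr1:170958617-170976547), the inhibitory IgG receptor, had 459, 463 and 521 CPM in IM and 69.5, 132 and 111 CPM in NCM, and the log2 fold change was 2.21 ± 0.32 (SE, edgeR adjusted p = 0.000757). Fcgr3, an activating receptor, had 786, 716 and 846 CPM against 176, 213 and 204 CPM, and the log2 fold change was 1.99 ± 0.32 (SE, edgeR adjusted p = 0.00163). With Fcgr1 and Fcgrt, these were the IM-higher members, and 2 remained past the threshold without IM648 or NCM659. Of 21 complement genes 5 were higher in IM and 1, Itgb2, in NCM: the IM-higher ones included the 3 C1q chains and the C5a receptor C5ar1 with 325 ± 14 against 116 ± 21.2 CPM (1.48, adjusted p = 0.00173). The IM-higher count was 3 without IM648, 2 without IM660 and 8 without NCM650, and Itgb2 did not pass without IM659.

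Of 50 lysosome genes 24 were higher in IM, with 0 higher in NCM and a median of 1.07. Of the 24, 21 passed in the deleted libraries. Ctsd (chr7:142375911-142388038), the protease cathepsin D, had 946, 1051 and 1040.3 CPM in IM and 114, 189 and 213 CPM in NCM, and the log2 fold change was 2.56 ± 0.36 (SE, edgeR adjusted p = 0.000568). Ctsk, cathepsin K, had 47.9, 49.9 and 49.6 CPM against 4.72, 4.77 and 4.73 CPM, and the log2 fold change was 3.37 ± 0.55 (SE, edgeR adjusted p = 0.00163). Cd63, a tetraspanin of late endosomes, had 126, 143 and 162 CPM against 11.4, 18.7 and 22.6 CPM, and the log2 fold change was 3.03 ± 0.36 (SE, edgeR adjusted p = 0.000210). With Atp6v0d2, described above, these had the largest folds of the 24, which ran down to 0.82 for Ctsa, and Lyz1 and Lyz2, 2 near-identical genes, may share reads. Without NCM648 14 were higher in IM.

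Iron genes followed the same direction, with 7 of 23 higher in IM, 0 in NCM and a median of 1.15. Fth1 (chr19:9980598-9985098), the heavy chain of the iron store ferritin, had 3333, 3495 and 3674 CPM in IM and 664, 792 and 947 CPM in NCM, and the log2 fold change was 2.13 ± 0.23 (SE, edgeR adjusted p = 0.000130), and pseudogenes of ferritin may take part of its reads. Trf, transferrin, had 705, 842 and 833 CPM against 68.5, 212 and 159.7 CPM, and the log2 fold change was 2.43 ± 0.53 (SE, edgeR adjusted p = 0.0112). Blvrb, a biliverdin reductase, had 39.8 ± 5.41 against 8.0 ± 0.655 CPM (2.31, adjusted p = 0.0223, lost without any single control library). The iron exporter Slc40a1 had 39.0, 29.2 and 39.0 CPM in IM and 0, 0 and 0.364 CPM in NCM (chosen after its values were seen). In the deleted libraries Slc40a1 did not pass (log2 0.41, edgeR adjusted p = 0.899).

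Lipid genes were divided, 7 of 51 higher in each cell type, with a median of 0.34. Abca1 (chr4:53030787-53159895), the cholesterol exporter, had 1051, 852 and 852 CPM in IM and 191, 234 and 279.9 CPM in NCM, and the log2 fold change was 1.97 ± 0.26 (SE, edgeR adjusted p = 0.000412). Lpl, lipoprotein lipase, had 235 ± 32.5 against 43.7 ± 29.1 CPM (2.42, adjusted p = 0.00832). On the other side Fabp4 (chr3:10204088-10208576), a fatty acid binding protein, had 5.18, 6.05 and 5.52 CPM against 95.8, 55.2 and 35.4 CPM, and the log2 fold change was -3.47 ± 0.61 (SE, edgeR adjusted p = 0.00287). The groups did not overlap for Abca1, Lpl or Fabp4. The NCM-higher count was 3 without IM648 or NCM648, 4 without IM659 or NCM657 and 2 without IM660, and the IM-higher count 11 without NCM650.

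Of 42 genes of factors that act on vessels 6 were higher in IM and 2 in NCM (Ace and Sema4d), with a median of 0.62. The shares of all tested genes were 2.81% for IM and 4.67% for NCM. Igf1 (chr10:87858265-87937042), insulin-like growth factor 1, had 355, 334 and 353 CPM in IM and 6.64, 12.7 and 54.2 CPM in NCM, and the log2 fold change was 3.82 ± 0.79 (SE, edgeR adjusted p = 0.00881). NCM659 had the highest NCM level and still lay far below the IM libraries. Nrp2, a co-receptor for VEGF and semaphorins, had 285 ± 38 against 70.03 ± 6.73 CPM (2.02, adjusted p = 0.00181), and Sema4d, a semaphorin, 103 ± 16.1 against 409.9 ± 113 CPM (-2.0, adjusted p = 0.00920, lost without IM659). The IM-higher count was 3 without any one of IM648, IM659, IM660, IM649, IM650 and NCM648, and the NCM-higher count 1 without IM659.

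Of 47 matrix and protease genes 10 were higher in IM and 4 in NCM, with a median of 1.11. Mmp14 (chr14:54431612-54445364), a membrane-bound collagenase, had 99.5, 113 and 117 CPM in IM and 4.57, 12.4 and 8.13 CPM in NCM, and the log2 fold change was 3.71 ± 0.47 (SE, edgeR adjusted p = 0.000355). The coagulation factors fell on different sides: F5 had 3.88 ± 1.66 against 69.7 ± 42 CPM (-4.16, adjusted p = 0.00320) and F10 30.9 ± 7.23 against 135 ± 22 CPM (-2.13, adjusted p = 0.00637), both higher in NCM with Tgm2 and Emilin2, whereas F7 had 27.7, 38.7 and 34.7 CPM in IM and 0, 0.734 and 3.40 CPM in NCM (picked after its values were seen). Genes of alternative activation and repair, several of them in the lists above, were higher in IM at 14 of 30 and in NCM at 0, with a median of 2.32. Chi3l3 (chr3:106147554-106167564), now Chil3 and encoding the lectin Ym1, had 1189.5, 1292 and 1257 CPM against 56.2, 124 and 107 CPM, and the log2 fold change was 3.70 ± 0.40 (SE, edgeR adjusted p = 0.000121). The count of 14 was 6 without IM648 and 8 without IM660 or NCM657.

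Adhesion and chemoattractant receptor genes divided. Of 34 integrin and adhesion genes 8 were higher in IM and 5 in NCM (Spn, Itgal, Itga4, Itgb2 and Tln1), with a median of 0.03. Vcam1, the ligand of the alpha-4 integrins, had 122, 129 and 158 CPM in IM and 0, 7.34 and 18 CPM in NCM, and the log2 fold change was 4.0 ± 1.13 (SE, edgeR adjusted p = 0.0460), and passed in 2 of the 12 fits that left out 1 library. Amica1, now Jaml, had 105 ± 14 against 9.08 ± 4.48 CPM (3.52, adjusted p = 0.0215, lost without IM648, IM659, IM660, NCM648 or NCM657). The IM-higher count was 1 without IM648 or NCM657, 2 without IM660 or NCM648, 3 without IM659 and 5 without IM649 or IM650. Of 33 receptors for chemoattractants 4 were higher in IM (P2ry13, P2ry6, Cmklr1 and C5ar1) and 2 in NCM (Gpr35 and S1pr5), with a median of 0.95. S1pr5 is outside the naming rule. Gpr35 had 30.7 ± 4.84 against 268 ± 42.4 CPM (-3.13, adjusted p = 0.000949), and Ccr2, the CCL2 receptor of classical monocytes, had 156, 118 and 188 CPM against 26.6, 142 and 70.7 CPM (0.95, adjusted p = 0.681). The IM-higher count was 12 without NCM649 and 9 without NCM661.

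**Figure D3:**
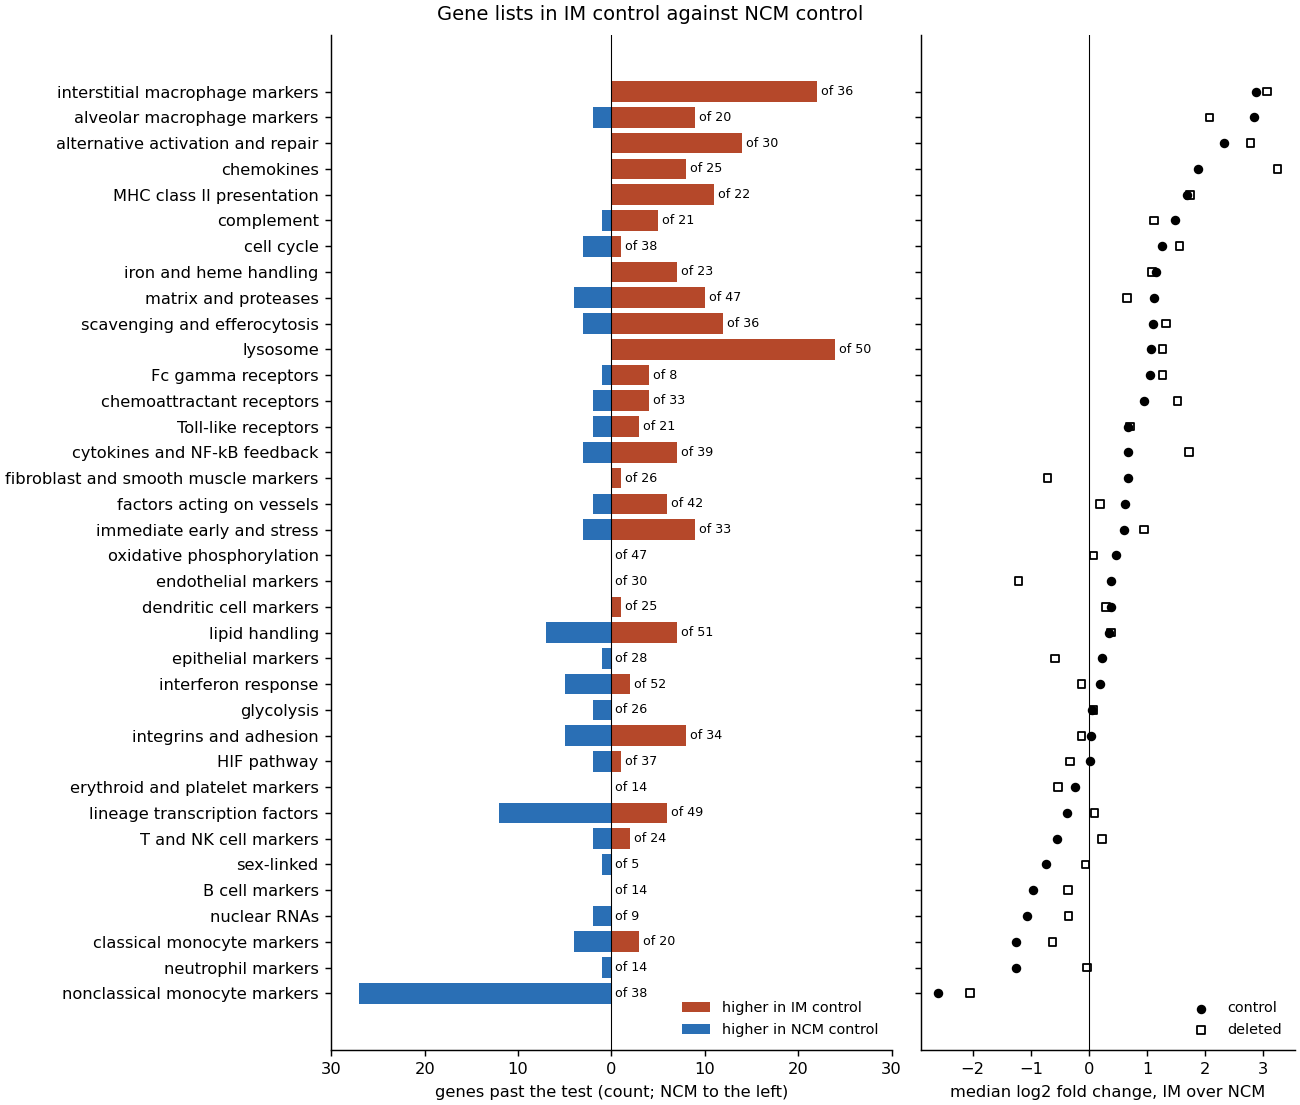
Number of genes of each list past edgeR's test in IM control against NCM control (left, IM-higher to the right and NCM-higher to the left, with the number tested) and median log2 fold change of the list's members in the control (filled circles) and deleted (open squares) libraries (right). In control the median was highest for interstitial macrophage markers (2.87) and lowest for nonclassical monocyte markers (-2.60). The lists were chosen with earlier results of these data known, so the medians are descriptions.

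Hif1a (chr12:73901375-73947530) had 231, 212 and 243 CPM in IM and 246, 221 and 207 CPM in NCM, and its log2 fold change was 0.02 ± 0.22 (SE, edgeR adjusted p = 0.979). Epas1, which encodes HIF-2 alpha and is also an endothelial gene, had 767, 1122 and 318 CPM against 280.3, 649.9 and 1182 CPM (0.06, adjusted p = 0.979). The order of the 6 libraries for Epas1 was that of Cdh5, and the part of endothelial RNA was not tested. Vhl, which marks HIF for degradation, had 16.3 ± 0.940 against 28.7 ± 5.71 CPM (-0.82, adjusted p = 0.594). Of 37 genes of the HIF pathway 1 was higher in IM, beside 2.81% of all tested genes, and 2 in NCM, beside 4.67% (Mxi1, adjusted p = 0.0324, and Bhlhe40, adjusted p = 0.0397), with a median of 0.02, and fits without any one of IM648, IM659, IM660, IM649, IM661, NCM648 and NCM657 called 0 higher in NCM, and without IM650 1. Without IM648 or IM660 0 were higher in IM and without NCM659 2.

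Of 26 glycolysis genes 2 were higher in NCM, 0 were higher in IM and 24 did not pass, with a median of 0.06. These 2 were Eno3 and Slc16a3, beside 4.67% of all tested genes higher in NCM. Eno3 (chr11:70657202-70662513) had 3.43, 4.35 and 3.20 CPM in IM and 156, 83.7 and 82.8 CPM in NCM, and the log2 fold change was -4.87 ± 0.70 (SE, edgeR adjusted p = 0.000659). Slc16a3 (chr11:120948480-120960868), the lactate exporter MCT4 and a known HIF-1 target, had 10.9, 6.64 and 10.7 CPM against 139.9, 105 and 102 CPM, and the log2 fold change was -3.62 ± 0.47 (SE, edgeR adjusted p = 0.000384). Both kept their call in the 12 fits that left out 1 library and passed in the deleted libraries (-4.81 and -2.71). With the outside-exon share as a covariate neither passed in control, where that share did not overlap between the cell types. Of 47 genes of oxidative phosphorylation 0 passed in either direction, with a median of 0.46. At an unadjusted p under 0.05 4 were higher in IM and 0 in NCM, and DESeq2 called 3 and limma-voom 4 higher in IM. The fit of the 6 control libraries alone called 5 higher in IM and 0 in NCM. In the main fit 40 of the 47 had a log2 fold change above 0 and 7 below, beside a median of 0.06 over all tested genes.

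Of 52 interferon response genes 2 were higher in IM (Gbp3 and Gbp7, 2.34 and 1.90), beside 2.81% of all tested genes, and 5 in NCM, beside 4.67%, with a median of 0.19. Ifitm3 (chr7:141009586-141010770), a membrane barrier to viruses, had 42.3, 66.6 and 32.9 CPM in IM and 221, 154 and 128 CPM in NCM, and the log2 fold change was -1.83 ± 0.34 (SE, edgeR adjusted p = 0.00395), and Ifitm6 and Zbp1 had the same direction (-4.18 and -2.85, the latter lost without IM648, IM659 or NCM648), with Ifitm2 and Ly6e. Reads of the Ifitm genes may be shared between family members. The NCM-higher count was 2 without IM648, IM659 or NCM648 and 3 without NCM657. Of 33 immediate early and stress genes 9 were higher in IM and 3 in NCM (Nr4a1, Btg1 and Dusp5), with a median of 0.61. Fos (chr12:85473890-85477273), an AP-1 subunit, had 1893, 1614 and 2674 CPM against 529, 524 and 673 CPM, and the log2 fold change was 1.84 ± 0.26 (SE, edgeR adjusted p = 0.000651). Egr1 had 1544, 1402 and 1578 CPM against 279, 373 and 494 CPM, and the log2 fold change was 1.98 ± 0.30 (SE, edgeR adjusted p = 0.000964). The groups did not overlap for either gene. The IM-higher count was 4 without IM648 and 5 without NCM648 or NCM657.

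Toll-like receptor genes gave 3 of 21 higher in IM (Ly86, Unc93b1 and Cd14) and 2 in NCM (Cd180 and Irak3), with a median of 0.68. The IM-higher count lay between 0 (without IM648, NCM648 or NCM659) and 7 (without NCM649), with 1 without IM659, IM660 or NCM657 and 5 without NCM650. The NCM-higher count was 0 without IM648, IM659 or NCM648 and 1 without IM660, IM649, IM661 or NCM657. Of all tested genes 2.81% were higher in IM and 4.67% in NCM. Cell cycle genes gave 1 of 38 higher in IM (Stmn1, 55.0, 111 and 67.8 CPM against 7.38, 21.2 and 15.9) and 3 in NCM (Ccnd3, Cdkn1b and Tyms), with a median of 1.26. The latter were 0 without IM659 or NCM648 and 1 without any one of IM648, IM660, IM649, IM650, IM661 and NCM657, and the former 2 without NCM649 and 4 without NCM650.

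Markers of other cell types were compared as summed CPM per library. Beside their counts, 2.81% of all tested genes were higher in IM and 4.67% in NCM. Of 30 endothelial markers 0 passed, and their sums overlapped (2535 to 6386 CPM in IM and 1949 to 6057 in NCM). At an unadjusted p under 0.05 3 of these were higher in IM and 1 in NCM, and DESeq2 and limma-voom each called 2 higher in IM. Of 28 epithelial markers 1 passed, Napsa, which is also a monocyte marker (-2.77), and the sums were 1405 to 3199 against 900.3 to 3195 CPM. Transcripts of these tissues were thus present in both sorts, as for the surfactant gene Sftpc with 713, 899.8 and 392 CPM in IM and 171, 429 and 952 CPM in NCM. Fibroblast markers (537 to 1027 CPM against 293 to 642, 1 of 26 passed, Gsn) and erythroid and platelet markers (216 to 343 against 76.7 to 138, 0 of 14 passed) had smaller sums, and Gsn did not pass without IM648, IM659, IM660, NCM648 or NCM657. At an unadjusted p under 0.05 1 erythroid or platelet marker was higher in each group, DESeq2 called 1 higher in NCM and limma-voom 1 in each direction. B cell markers passed at 0 of 14, and 1 was higher in NCM at an unadjusted p under 0.05, where DESeq2 called 0 and limma-voom 1. Ly6g, which defines neutrophils, was at 0 in all 6 libraries, although 1 of 14 neutrophil markers, Trem1, was higher in NCM (-3.54). Trem1 is also carried by monocytes. Without IM661 or NCM650 2 neutrophil markers were higher in NCM, without NCM649 3 and without NCM661 4.

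Of 24 T and NK cell markers 2 were higher in each group, beside 2.81% of all tested genes higher in IM and 4.67% in NCM. Cd4 had 74.9, 82.1 and 81.9 CPM in IM and 0, 3.06 and 1.82 CPM in NCM, and the log2 fold change was 5.58 ± 1.31 (SE, edgeR adjusted p = 0.0170). Il7r had 115, 83.5 and 187 CPM against 7.67, 21 and 14.1 CPM, and the log2 fold change was 3.17 ± 0.44 (SE, edgeR adjusted p = 0.000581). Cd3e, which defines T cells, was at 1.17, 1.55 and 1.44 CPM in IM and 0, 3.42 and 1.82 CPM in NCM. Gzma had no count in IM and 11.5, 45.9 and 45.6 CPM in NCM, at least 151-fold higher in NCM against the floor of 3 counts per library, and Gzmb 0.730, 0 and 0 against 18.7, 48.0 and 32.4 CPM (both picked after their values were seen). The IM-higher count was 1 without IM648, IM659, IM660 or NCM659, and the NCM-higher count 1 without IM659, IM660, IM650 or any one NCM control library.

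Alveolar macrophages are the other large phagocytes of the lung, and 9 of their 20 markers were higher in IM and 2 in NCM (Pparg and Fabp4), with a median of 2.84. Of the 20, 13 are also in other lists used here, Mrc1, Chi3l3 and Ctsk among them. The summed CPM of the 7 that are in no other list were 375, 267 and 321 in IM and 6.2, 83.7 and 29.8 in NCM. Siglec5, now Siglecf, had 51.2, 41.1 and 27.3 CPM against 3.10, 2.57 and 0 CPM (edgeR adjusted p = 0.0668), and Marco 21.4, 84.8 and 65.7 against 0.590, 19.9 and 23.8 CPM (adjusted p = 0.332). 1600029D21Rik (now Plet1), Ear1 and Cidec passed, with 18.6 to 60.6 CPM in IM and at most 1.33 CPM in NCM. The part of alveolar macrophage RNA in the IM-higher genes was not tested. The NCM-higher count was 1 without any single control library or NCM650.

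Classical monocyte markers had a median of -1.25, with 3 of 20 higher in IM (Chi3l3, Ccl9 and Lyz1) and 4 in NCM. These 4 were Plac8, with 0.730, 1.03 and 0.240 CPM in IM and 165, 67.3 and 66.5 CPM in NCM (-7.19, edgeR adjusted p = 0.000657), Ifitm6, F10 and Gsr. Ly6c2, which defines classical monocytes, was at 1.24, 0 and 0 CPM in IM and 0, 4.40 and 4.85 CPM in NCM and did not pass (adjusted p = 0.486), and its reads may be shared with Ly6c1. The nuclear RNAs Malat1 (17334, 8755 and 16179.9 CPM against 40129, 21752 and 26896 CPM, -1.07, adjusted p = 0.0335, kept in 4 of the 12 fits without 1 library) and Neat1 (102, 91.9 and 96 CPM against 315, 209 and 266 CPM, -1.44, adjusted p = 0.0293) were higher in NCM, as was the share of reads outside exons. The count of 2 of 9 nuclear RNAs was 0 without IM648, IM659, IM660, NCM648 or NCM659 and 1 without IM649, IM650 or IM661. Of 5 sex-linked genes 1 was higher in NCM, Ddx3y, and it did not pass without any one of IM648, IM659, IM660, IM649, IM650, IM661, NCM648 and NCM657.

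**Figure D4:**
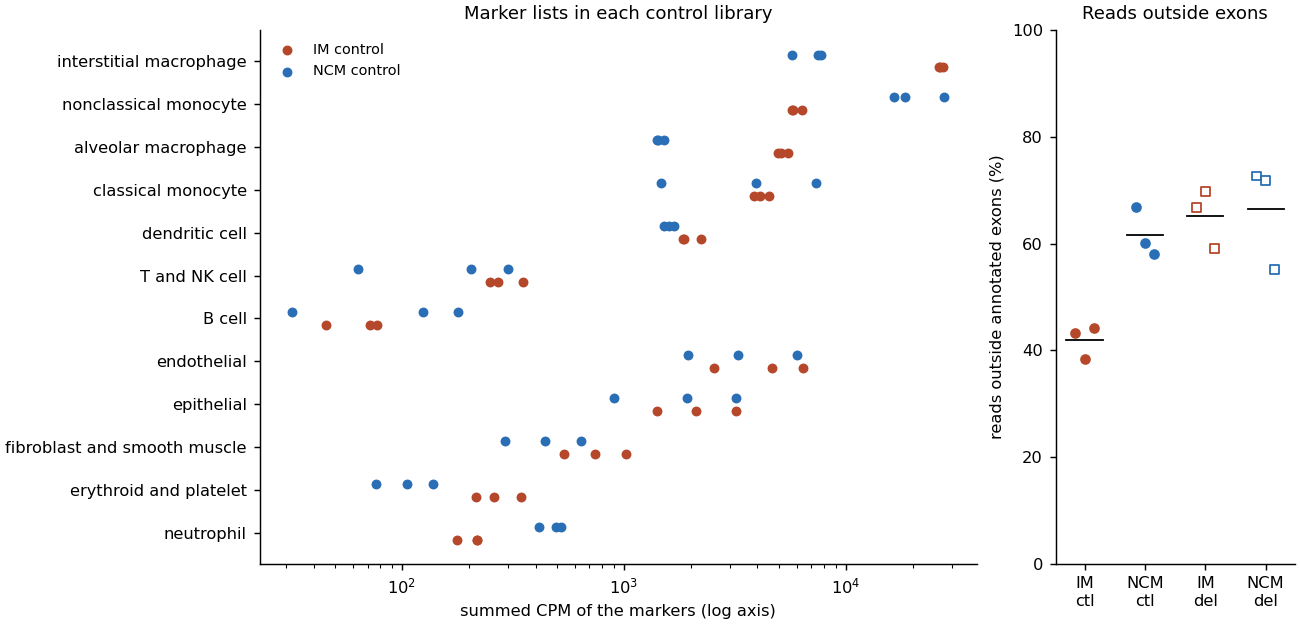
Left, summed CPM (log axis) of each cell type's markers in the 6 control libraries, 1 point per library. Right, reads outside annotated exons as a percentage of exonic plus outside-exon reads in the 12 libraries, with a line at each group's mean, from 42.0% in IM control to 66.6% in NCM deleted.

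The cell type comparison was repeated in the Hif1a-deleted libraries, which share no library with the controls. Both comparisons come from the same fit of the 12 libraries, which pools the spread over the groups. A gene's calls in control and deleted are thus not independent. There 652 of 14254 genes passed (4.57%), 459 higher in IM (3.22%) and 193 higher in NCM (1.35%). Of the 401 genes higher in IM control 241 (60.1%) passed with the same direction and 0 with the opposite one. Of the 665 genes higher in NCM control 166 (25.0%) passed with the same direction and 0 with the opposite one. The difference of the 2 cell type effects, an interaction term, passed at 0 genes (0.0%) in edgeR, at 22 genes upward and 40 downward in DESeq2 and at 1 and 6 in limma-voom. In edgeR 1271 genes had an unadjusted p under 0.05, and the smallest adjusted p was 0.139. C5ar1 had a log2 fold change of 1.48 in control and 3.72 in deleted libraries, Igf1 of 3.82 and 6.57, Cxcl2 of 1.99 and 4.45, and Ccdc88c of -6.07 and -3.78. None of these gaps passed in edgeR's interaction test, and no preset rule chose these genes as examples of it. Without NCM661 the deleted comparison gave 1217 genes higher in IM and 492 higher in NCM, and the interaction 34 genes.

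**Figure D5:**
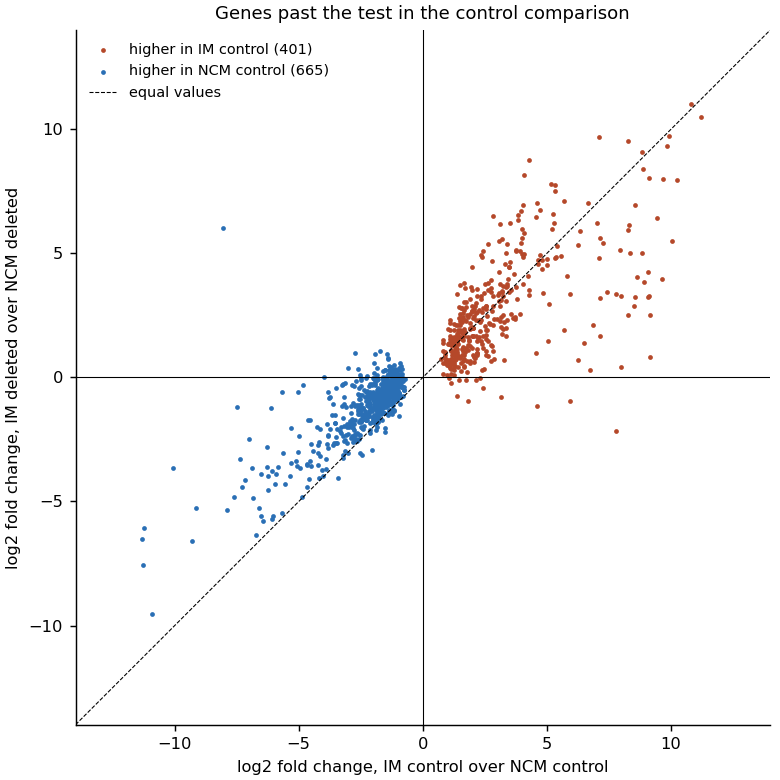
Log2 fold change of IM over NCM in the deleted libraries (vertical axis) against that in the control libraries (horizontal axis) for the 1066 genes that passed in control, with the line of equal values. Of the 401 IM-higher genes 388 lie above 0 on the vertical axis and of the 665 NCM-higher genes 603 lie below it.

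By Pearson correlation of log2 CPM over the 12 libraries, the genes most like C1qa were H2-DMa (0.985), Snx5 (0.983), Trf (0.983), Rbpj (0.980) and Plxdc2 (0.977). Those most like Ace were Fam55d (0.983), Gcnt2 (0.977), Tgm2 (0.975), Xdh (0.974) and Slc44a2 (0.974). The 12 points share their libraries, lanes and outside-exon shares, and the values are a description.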

How the data were processed

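The authors deposited 1 file of raw counts of reads per gene symbol for each of 12 libraries (26608 genes and 5 summary rows). The submitters' processing notes name cutadapt 1.12, TopHat2 2.1.1, HTSeq 0.6.0 and the build GRCm38 (mm10). For roles, options, annotation and strand setting the sources used here give nothing. Summary rows held 45.0 to 74.1% of reads and were left out. Libraries were made with the SMARTer stranded total RNA pico kit, per the labels' protocols.

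Counts of all 12 libraries were fitted with edgeR 4.0.16 in R 4.3.3 (TMM, filterByExpr at a minimum count of 10, robust quasi-likelihood test, 4 group means), which pools the spread over the groups. The contrasts were IM minus NCM in control, in deleted, and their difference, each with Benjamini-Hochberg adjustment over 14254 genes at 0.05. The fit was tested on simulated counts. Alternatives were DESeq2 1.42.0, limma 3.58.1 (voom with quality weights), other scalings and filters, the control libraries alone, glmTreat at a log2 fold of 1, a covariate, a replicate block and each library left out.

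Named genes were, with clone-type names passed over, the 15 largest folds per direction at a mean log2 CPM of at least 4 without overlap of the groups, up to 5 passing members per list at a mean log2 CPM of at least 3, and preset cell type, Hif1a and C1q genes. Genes outside the rule complete short counts or were chosen after their values were seen. The members and 36 lists were chosen with earlier results of these data known. Gene coordinates and gene lengths are from the GENCODE annotation, matched for 24503 rows. Promoters are RefSeq's (GRCm38.p6), whose symbols matched 24555 rows. No depth interval is given, since replicate spread was used. Some results are not reported here.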

Additional observations from a re-analysis of the deposited data

Results flagged for a closer look

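The level of Malat1, a nuclear long noncoding RNA, was below every NCM control library in each IM control library and above every NCM deleted library in each IM deleted library. The control log2 fold change was -1.07 (edgeR adjusted p = 0.0335) and the deleted one, which did not pass, 0.29 (adjusted p = 0.724), a difference of -1.36. The control call held in 4 of the 12 fits that left out 1 library, those without NCM657, NCM649, NCM650 or NCM661. It was lost with RLE scaling, the filter of 5 CPM in 3 libraries, limma-voom, the 6 control libraries alone, glmTreat and the outside-exon covariate. The interaction did not pass in edgeR's quasi-likelihood test (adjusted p = 0.399). The share of reads outside exons was 42.0% in IM control, 61.7% in NCM control, 65.2% in IM deleted and 66.6% in NCM deleted. Its part in the Malat1 values was not tested beyond the covariate fit.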

How the results depend on the processing

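Alternatives for the deleted comparison, and limma-voom and glmTreat for the interaction, were chosen after seeing the data. In the control comparison (401 higher in IM, 665 higher in NCM), DESeq2 gave 854 genes higher in IM, limma-voom 1195 and 1472, the 6 control libraries alone 839 and 1176, glmTreat 117 and 164 and the outside-exon covariate 15 and 13. In the deleted comparison DESeq2 gave 782 and 446, limma-voom 213 higher in IM and glmTreat 194 and 56. The interaction gave 22 and 40 genes in DESeq2 and 1 and 6 in limma-voom. With the number in the title as a replicate block the control counts were 110 and 179 and the deleted counts 303 and 94. Deviations of same-numbered libraries correlated at 0.272 for IM659 and NCM659 and between -0.126 and 0.0359 for the other shared numbers. Since only that pair was above 0.1, the numbers are not taken as pairs. Leaving out each library in turn gave 194 to 684 and 276 to 911 genes in control, 237 to 1217 and 97 to 492 in deleted, and 0 to 0 and 0 to 34 for the interaction, and an outside-exon difference of -21.5 to -17.2 percentage points. Epas1 reversed to -0.42 in limma-voom, -1.09 with the covariate, -0.32 without IM659 and -0.31 without NCM648, within a range up to 0.66 without NCM659. With the covariate Amica1 reversed to -0.0045, Irak3 to 0.088, Ly6c2 to 0.00062, Pparg to 0.55 and Sfpi1 to 0.11. Hif1a reversed to -0.030 with the replicate block, and lay between -0.030 without NCM659 and 0.15 without IM659, with -0.021 without IM660. The cause was not tested. Of 136 named genes that passed, 91 kept the call in all 12 fits without 1 library. Of the same 136, 80 kept it in glmTreat, 70 with the replicate block and 16 with the outside-exon covariate. Through every alternative and every fit without 1 library 16 kept it. The covariate did not overlap between IM control and NCM control, so calls lost with it do not show their cause. With 3 libraries a group and gene counts from 7238612 in NCM control, a gene that did not pass is not shown to be equal.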
